A study of Mus musculus with 9 samples.

Results

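The genes described here are the secreted and membrane-bound metalloproteases of the extracellular matrix and their inhibitors: the matrix metalloproteases (Mmp), the tissue inhibitors of metalloproteases (Timp), the ADAMTS proteases (Adamts) and the ADAMTS-like proteins (Adamtsl). They were taken by gene symbol from the table of counts, which gave 51 of 25860 genes: 23 Mmp, 4 Timp, 19 Adamts and 5 Adamtsl. The study sequenced polyadenylated RNA of Osx1-Cre cells, sorted by flow cytometry from cultured calvarial cells of newborn mice (the calvaria are the flat bones of the skull roof). The 2 groups were IRE1KO, with 5 libraries, and WT, with 4, and the series is about signalling by IRE1, the kinase and endoribonuclease of the endoplasmic reticulum encoded by Ern1. Each library was a pool of cells from 3 to 5 pups aged 2 to 4 days, which were grown in alpha-MEM with 10% serum and harvested at 90% confluence. Osx1-Cre is a transgene that places Cre recombinase under the osterix (Sp7) promoter, which is active in the osteoblast lineage. By the design text all 9 libraries came from Osx1-Cre cells, WT included, and the floxed or deleted Ern1 allele and the strain of each group were left unnamed.

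Matrix metalloproteases are made as inactive proenzymes and cut collagens and other matrix proteins. Many are switched on outside the cell or at its surface, and some inside the cell by furin. TIMPs bind the active site and block it, and TIMP2 also helps MMP14 to activate the MMP2 proenzyme. ADAMTS proteases cut proteoglycans such as versican and aggrecan or trim procollagens, while ADAMTS-like proteins have the same outer modules without a catalytic domain. In bone, osteoblast-lineage cells use these enzymes to remodel unmineralized collagen and to release stored growth factors.

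Total counts per library were 18784636 to 22028075. Ern1 itself was at 49.8 to 55.8 CPM (counts per 1000000 on TMM-scaled library sizes, the scale used throughout) in IRE1KO and 41.5 to 54.2 CPM in WT, a gene total that cannot show a missing exon and so checks no label. Osteoblast-lineage markers were present in all libraries for Runx2 (59.8 to 75.0 CPM) and Sp7 (13.6 to 24.6 CPM), while Bglap, a product of mature osteoblasts, was at most 0.192 CPM and at 0 in 3 libraries. WT library 4 stood apart on the first principal component, at 56.7 against -23.4 to 15.1 for the other libraries.

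Before any comparison, the upstream sequences show what a group of neighbouring members has in common. Mmp13, Mmp12, Mmp1b, Mmp3, Mmp1a, Mmp10, Mmp8, Mmp27, Mmp20 and Mmp7 lie side by side on chromosome 9 from 7272514 to 7699585, a span of 427.1 kb (GRCm38, GENCODE M21). RefSeq promoter windows on GRCm38.p6, from 250 bases before to 50 bases after a gene's start, were found for 36 of the 51 members, including all 10 of this cluster. The letters TGAGTCA, read on both strands, are the classical site for AP-1, the dimer of Fos and Jun proteins. They were present in the windows of 7 of the 10 cluster members and of 0 of the other members with a window, and in 5.2% of all 32851 windows. The Runx letters TGTGGTT were present for Mmp13, Mmp27 and Mmp7, and in 5.27% of all windows. TGACGTGG, the core of the element bound by the IRE1 product XBP1s, was present for Timp1 and Adamts3 and in 0.676% of all windows. The endoplasmic reticulum stress element (CCAAT, then 9 bases of any kind, then CCACG) matched no member window and 0.119% of all windows. These matches are descriptions of letters and no evidence of binding, and none of the matches printed overlapped another. The 120 bases up to the RefSeq start are shown for Mmp13, Mmp3 and Mmp10 because they carry the AP-1 letters just before the start, for Mmp8 as a neighbour whose window has none, and for Timp1 because it carries the XBP1s core. Capitals mark the matched letters.
Mmp13 (chr9:7272394-7272513, plus strand): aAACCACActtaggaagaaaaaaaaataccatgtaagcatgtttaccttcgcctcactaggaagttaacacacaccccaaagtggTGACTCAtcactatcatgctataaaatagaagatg
Mmp3 (chr9:7445702-7445821, plus strand): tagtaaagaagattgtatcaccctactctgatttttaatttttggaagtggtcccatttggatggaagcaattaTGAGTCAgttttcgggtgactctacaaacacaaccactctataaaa
Mmp10 (chr9:7502222-7502341, plus strand): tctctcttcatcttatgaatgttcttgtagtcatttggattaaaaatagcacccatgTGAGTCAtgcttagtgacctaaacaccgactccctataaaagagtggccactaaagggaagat
Mmp8 (chr9:7558309-7558428, plus strand): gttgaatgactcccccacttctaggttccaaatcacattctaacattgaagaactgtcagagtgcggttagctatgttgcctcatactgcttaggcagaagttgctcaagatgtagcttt
Timp1 (chrX:20870046-20870165, plus strand): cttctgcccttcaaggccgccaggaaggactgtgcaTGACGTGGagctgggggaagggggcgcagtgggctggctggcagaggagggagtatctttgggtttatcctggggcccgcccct
The AP-1 letters span bases -46 to -40 in Mmp3, -63 to -57 in Mmp10 and, on the opposite strand, -35 to -29 in Mmp13, counted from the RefSeq start. Mmp13 has the Runx letters at -119 to -113 on the opposite strand. Shared letters did not go with a shared level in these cells: of the 7 cluster members with AP-1 letters, Mmp1a and Mmp7 had 0 counts in every library, while Mmp13 averaged 191.7 CPM.

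The cells made a broad set of these genes. Of the 51 members, 47 had at least 1 count and 4 had none in any library: Mmp1a, Mmp7 (matrilysin), Mmp20 (the enamel protease) and Adamts13 (which cuts von Willebrand factor). A count of 0 allows up to 3 counts, or 0.136 to 0.16 CPM in a library. Another 10 members had counts but were too low for the test: Mmp1b, Mmp10, Mmp21, Mmp24, Mmp27, Timp4, Adamts17, Adamts18, Adamts19 and Adamtsl2, with group means of at most 1.15 CPM. That left 37 members for testing, of which 12 averaged over 100 CPM and 13 between 10 and 100 CPM.

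Per length, the inhibitors and the MMP2 system led. Levels between genes are compared as CPM per kb of annotated exon. Timp1 was at 1067 ± 112.1 CPM per kb (SD, n = 5) in IRE1KO and 759 ± 172 (SD, n = 4) in WT. Timp2 followed with 357.2 ± 23.1 and 387.8 ± 76.2 CPM per kb. Mmp2, gelatinase A, was the leading protease at 280.7 ± 9.05 and 297.4 ± 75.6 CPM per kb. Mmp14, the membrane-anchored collagenase that activates the MMP2 proenzyme, was at 111.6 ± 8.20 and 117 ± 21.8 CPM per kb. Timp3, which binds to the matrix, was at 80.5 ± 5.45 and 72.9 ± 23.9 CPM per kb. These 5 genes kept ranks 1 to 5 when the longest transcript replaced the exon union as length. Mmp2 and Mmp14 together made up 69.7% of the summed Mmp level per kb, and Timp1, Timp2 and Timp3 made up 64.9% of the level of all members.

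Among the other families, Adamts1 was the leading ADAMTS protease, at 31.4 ± 3.30 CPM per kb in IRE1KO and 28.9 ± 2.96 in WT. Adamts5, aggrecanase-2, was next at 19.8 ± 1.09 and 21.9 ± 0.688 CPM per kb, and Adamts2, the main procollagen N-proteinase, was at 16.9 ± 1.30 and 19.1 ± 9.47 CPM per kb. The neighbouring ranks of Adamts5 and Adamts2 did not differ beyond the spread of Adamts2 in WT. Adamtsl5 (13.6 ± 1.07 and 12.4 ± 2.85 CPM per kb) and Adamtsl4 (11.3 ± 1.90 and 13.3 ± 2.78), a fibrillin-binding protein, led the ADAMTS-like genes on the mean over all libraries and lay within each other's spread in WT. This order was not fixed: in WT alone Adamtsl3 was higher at 14.4 ± 6.01 CPM per kb, and by longest transcript Adamtsl1 (13.9) passed Adamtsl4 (12.7). Members known from other cells were low per kb: Mmp9, gelatinase B of osteoclasts and neutrophils, was at 0.312 ± 0.232 and 0.12 ± 0.0977, and Mmp8, the neutrophil collagenase, at 0.202 ± 0.0587 and 0.213 ± 0.132.

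**Figure D1:**
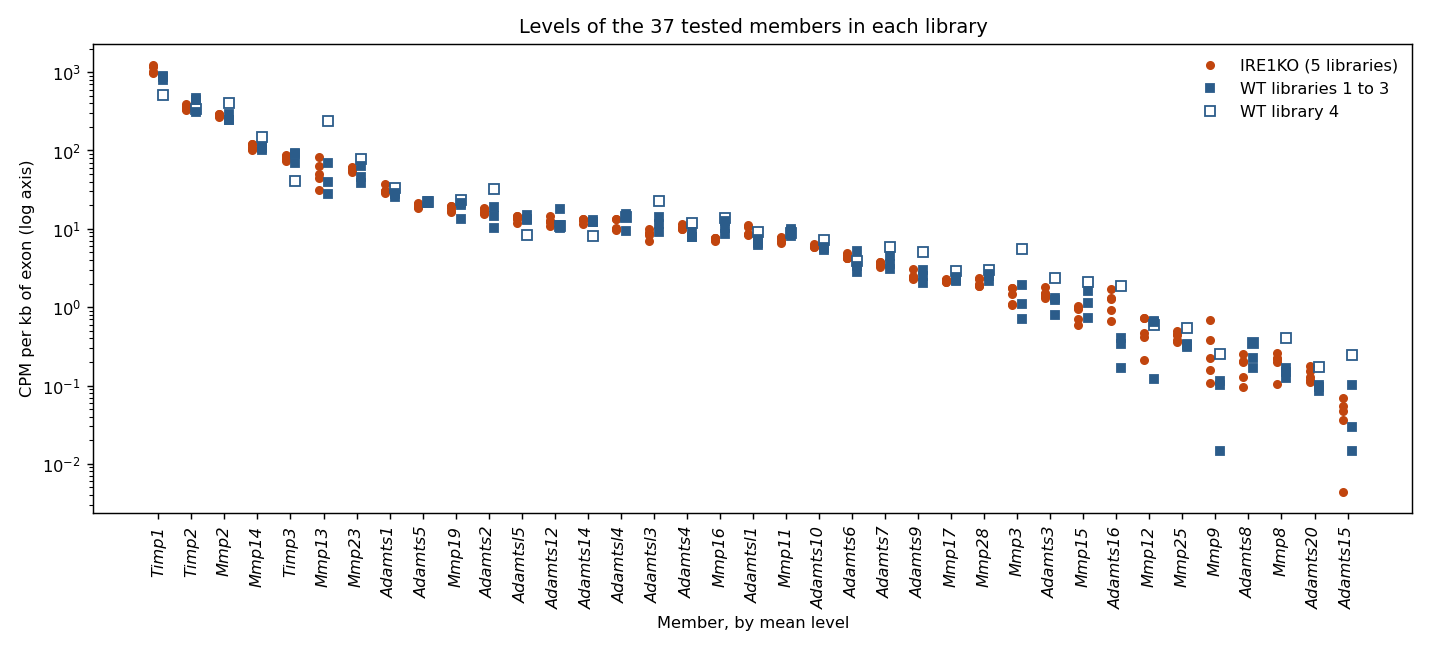
CPM per kb of exon on a log axis for the 37 tested members in every library, ordered by mean level, with IRE1KO as circles, WT libraries 1 to 3 as filled squares and WT library 4 as open squares. Timp1, Timp2, Mmp2, Mmp14 and Timp3 hold the first 5 places, and the open square is the highest of 9 libraries in 22 members.

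The comparison of IRE1KO with WT asks which of these genes differ when cells are labelled as lacking IRE1. None of the 37 tested members passed at an adjusted p under 0.05 (the quasi-likelihood test of edgeR, Benjamini-Hochberg adjusted over 13712 genes), where 0.634% of all tested genes did. At an unadjusted p under 0.05 there were 8 members, or 21.6% of those tested against 16.5% of all genes. Of these, 2 were higher in IRE1KO (5.41% of members, 7.14% of all genes) and 6 lower (16.2% of members, 9.36% of all genes). Groups did not overlap for 4 members, or 10.8% against 6.94% of all genes: Timp1 was higher (3.66% of all genes were) and Mmp16, Mmp11 and Adamts5 were lower (3.28%). The median log2 fold change (IRE1KO over WT) was -0.07 over the tested members and -0.005 over all tested genes. By family the medians were -0.09 for 15 Mmp, 0.14 for 3 Timp, 0.00 for 15 Adamts and -0.05 for 4 Adamtsl genes.

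The count of 0 changed when either of 2 WT libraries was left out and with the method. Without WT library 1, 5 members passed (Mmp16, Mmp11, Adamtsl3, Mmp15 and Adamts6), where 8.63% of all genes did. Without WT library 4, 3 passed (Adamts4, Adamts16 and Mmp16), against 2.9% of all genes. DESeq2 called 4 members (Mmp16, Mmp11, Adamtsl3 and Timp1) and 4.14% of all genes. Limma voom called 0 members and 0.117% of all genes, and with quality weights per library it called 4 (Mmp16, Mmp11, Adamts4 and Adamtsl3) and 5.32% of all genes.

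**Figure D2:**
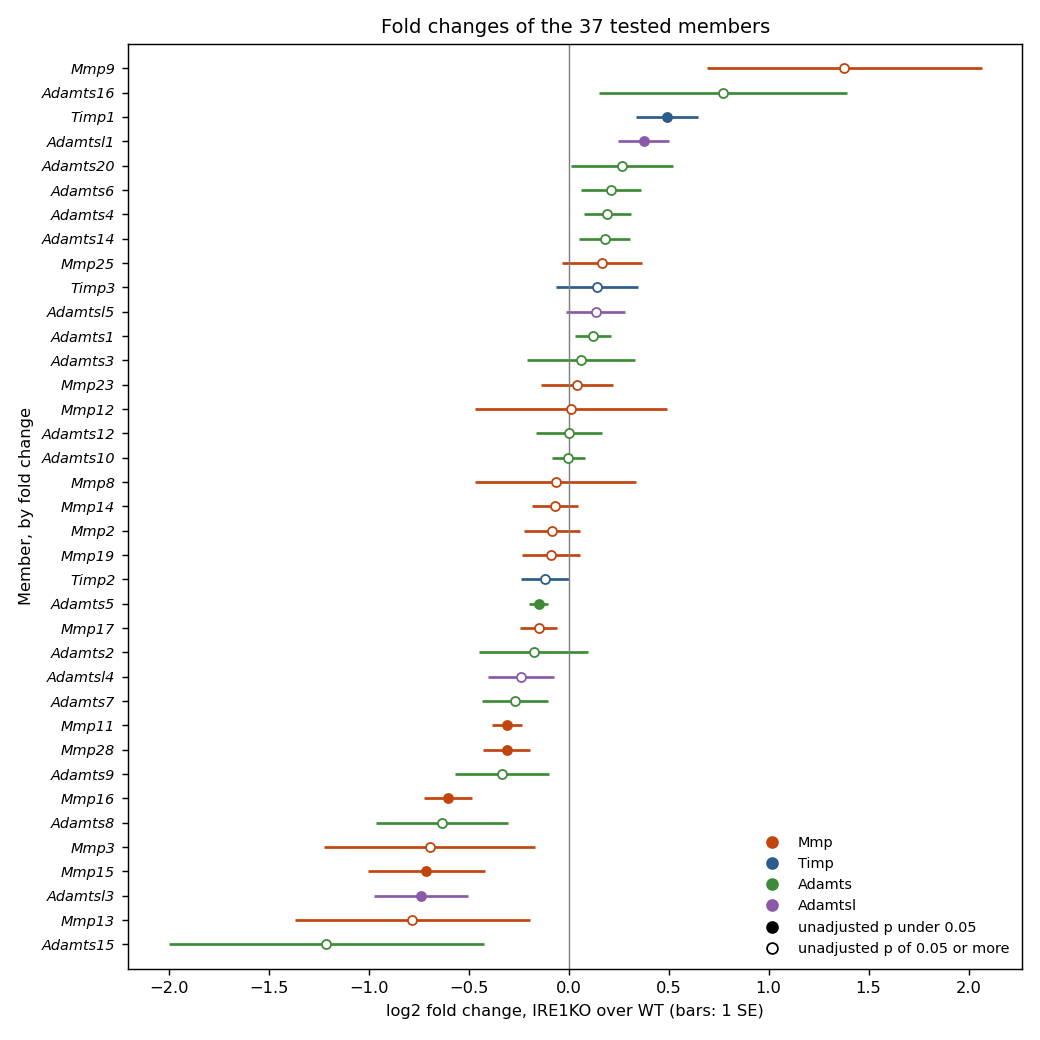
Log2 fold change of IRE1KO over WT with 1 SE for the 37 tested members, coloured by family, with filled points for an unadjusted p under 0.05. The 8 filled points are Timp1 and Adamtsl1 on the higher side and Mmp16, Mmp11, Mmp28, Mmp15, Adamtsl3 and Adamts5 on the lower side, and the widest bars belong to low or variable genes such as Mmp9, Adamts15 and Mmp13.

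Among the membrane-type proteases, Mmp16 had the smallest p of all members. Mmp16 (MT3-MMP, chromosome 4 from 17852893 to 18119145, GRCm38) is a transmembrane protease. It was at 65.3, 62.1, 66.5, 61.3 and 66.0 CPM in IRE1KO libraries 1 to 5 and at 73.6, 90.0, 108.1 and 118.7 CPM in WT libraries 1 to 4. All 5 IRE1KO libraries lay below all 4 WT libraries and close together, while the WT libraries spread widely. The log2 fold change was -0.60 ± 0.12 SE with adjusted p 0.063 in the quasi-likelihood test of edgeR (Benjamini-Hochberg). Over 17 alternatives it ran from -0.72 to -0.50, with adjusted p from 0.000444 to 0.264.

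None of the other tested membrane-anchored proteases separated the groups. Mmp14 was at 625.4, 719.7, 655.1, 613.3 and 712.3 CPM in IRE1KO and at 642.5, 599.1, 659.5 and 888.3 CPM in WT. WT library 4 was highest and the other WT libraries overlapped the IRE1KO range (log2 fold change -0.07 ± 0.11 SE). Mmp15 (MT2-MMP) was at 3.20, 5.07, 5.20, 3.78 and 5.56 CPM in IRE1KO against 3.88, 6.10, 8.69 and 11.2 CPM in WT. WT library 1 fell inside the IRE1KO range and the other WT libraries above it (log2 fold change -0.71 ± 0.29 SE, adjusted p = 0.266 by the quasi-likelihood test of edgeR). Of the 2 members anchored through a glycolipid, Mmp17 was at 14.5 ± 0.453 CPM in IRE1KO against 16.1 ± 2.36 CPM in WT, and Mmp25 at 2.26 ± 0.296 and 2.02 ± 0.572 CPM.

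Glial and adipocyte markers were also lower in IRE1KO, and their likeness to Mmp16 and Mmp15 across libraries was not computed. The summed level of 8 glial and Schwann cell markers was 12.6 to 18.7 CPM in IRE1KO against 21.03, 54.6, 61.8 and 86.9 CPM in WT libraries 1 to 4. All 6 tested markers were lower in IRE1KO at an unadjusted p under 0.05 in edgeR, where 9.36% of all genes were. Their median log2 fold change was -2.96, and 1 of them, Ngfr, passed after adjustment (adjusted p 0.0452 by the quasi-likelihood test of edgeR). The sum of 7 adipocyte markers was 43.5 to 53.4 CPM in IRE1KO against 70.5, 89.3, 114.2 and 115.4 CPM in WT, and 3 of 4 tested markers fell (Plin4, Lpl and Fabp4), where 0.379% of all tested genes fell. The adjusted p of these 3 lay close to the threshold, at 0.0416, 0.0475 and 0.0494 by the quasi-likelihood test of edgeR. When 1 IRE1KO library was left out, only 2 to 8 of all genes passed. Of the defining adipocyte and glial genes, Cfd was at 0 in every library, Adipoq reached at most 0.505 CPM, and Sox10 was at 0 to 0.972 CPM in IRE1KO and 0.97 to 9.82 CPM in WT. Of 7 endothelial markers 5 were tested and all 5 had negative log2 fold changes (median -0.50). Only Pecam1 fell, from 0.562 to 0.923 CPM in WT to 0.0531 to 0.291 CPM in IRE1KO (adjusted p 0.0497 by the quasi-likelihood test of edgeR). Its IRE1KO values lay near the limit for a count of 0 (0.136 to 0.16 CPM). The other tested markers overlapped between groups, among them Kdr (log2 fold change -0.026) and Cdh5 (-0.355). The sum of the 7 markers was 9.29 to 12.7 CPM in IRE1KO and 10.003 to 29.4 CPM in WT, and Cldn5 was at 0 in every library. The part of these cells in the Mmp16 and Mmp15 values was not tested. In bulk RNA, fewer cells of a type and less RNA per cell cannot be told apart.

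Among the secreted proteases, Mmp11 and Mmp28 also had a p under 0.05 before adjustment. Mmp11 (stromelysin-3, chromosome 10 from 75923222 to 75936496) is activated inside the cell by furin. It was at 19.4, 21.6, 21.3, 18.5 and 21.3 CPM in IRE1KO against 22.5, 27.8, 26.0 and 24.9 CPM in WT. The groups did not overlap, with the lowest WT library close to the highest IRE1KO library. The log2 fold change was -0.31 ± 0.074 SE and the adjusted p 0.101 (quasi-likelihood test of edgeR), with adjusted p of 0.0156 to 0.259 over the alternatives. Mmp28 (epilysin) was at 7.23, 7.32, 8.97, 7.56 and 9.01 CPM in IRE1KO against 8.27, 9.54, 10.4 and 11.5 CPM in WT, so that WT library 1 overlapped the IRE1KO range (log2 fold change -0.31 ± 0.12 SE, adjusted p = 0.236 by edgeR). Part of each gene's exons is shared with a gene on the other strand, 155 bp with Chchd10 for Mmp11 and 466 bp with 1700020L24Rik for Mmp28, and although the libraries were directional, the strand setting of the counting was not stated.

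The gelatinase Mmp2 (chromosome 8 from 92827291 to 92853420) had the second lowest coefficient of variation of the tested members in IRE1KO, 3.22%. It was at 925.6, 973.6, 905.7, 976.0 and 951.0 CPM there and at 829.6, 820.9, 993.6 and 1365 CPM in WT. The IRE1KO libraries lay inside the WT range. Its log2 fold change was -0.08 ± 0.14 SE, and without WT library 4 it was 0.10. Mmp19 was at 64.4 ± 4.96 and 68.5 ± 15.4 CPM and Mmp23 at 136.7 ± 7.38 and 132.7 ± 42.1 CPM, differences below the spread in WT.

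Proteases typical of macrophages and osteoclasts were low, and their groups overlapped. Mmp12, macrophage elastase, was at 5.24, 5.22, 1.54, 3.05 and 3.36 CPM in IRE1KO and at 4.65, 0.872, 4.80 and 4.28 CPM in WT. The low values were those of WT library 2 and IRE1KO library 3. In the same libraries the macrophage receptor Csf1r was also low, at 9.70 and 18.4 CPM, against 18.9 to 37.5 CPM in the other 7. The match was partial. IRE1KO library 5 had Csf1r at 18.9 CPM with Mmp12 at 3.36 CPM, and IRE1KO library 4 had 37.5 CPM with Mmp12 at 3.05 CPM. Mmp9 was at 1.36, 0.563, 0.796, 2.41 and 0.383 CPM in IRE1KO against 0.357, 0.0513, 0.404 and 0.888 CPM in WT, resting on 1 to 53 counts per library (log2 fold change 1.38 ± 0.69 SE, adjusted p = 0.349 by the quasi-likelihood test of edgeR). Its highest value was in IRE1KO library 4, which also had the highest Csf1r, but WT library 3, with Csf1r at 34.5 CPM, had Mmp9 at 0.404 CPM. Of 14 macrophage and osteoclast markers in the table, 0 of 12 tested passed (0 at an unadjusted p under 0.05 in edgeR), the sum was 332.1 to 516.9 CPM in IRE1KO and 219.1 to 490.8 CPM in WT, and Dcstamp was at 0 throughout. Of 7 neutrophil markers none could be tested, and S100a9, Ly6g and Elane were at 0. The part of these cells in the Mmp12 and Mmp9 values was not tested.

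Among the inhibitors, Timp1 was the member higher in IRE1KO without overlap between groups. Timp1 (chromosome X from 20870166 to 20874735) lies within the Syn1 gene without sharing exons with it. It was at 1019, 853.9, 890.9, 1085 and 887.6 CPM in IRE1KO against 781.7, 764.0, 698.9 and 451.2 CPM in WT. All IRE1KO libraries lay above all WT libraries, and WT library 4 was lowest. The log2 fold change was 0.49 ± 0.16 SE with adjusted p 0.185 by the quasi-likelihood test of edgeR, and 0.34 without WT library 4. Over the alternatives the adjusted p ran from 0.0462 to 0.408.

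Timp2 and Timp3 showed no such separation. Timp2 (chromosome 11 from 118301069 to 118355740) was at 1372, 1294, 1457, 1326 and 1509 CPM in IRE1KO against 1212, 1714, 1813 and 1304 CPM in WT. Both ends of its range were in WT (log2 fold change -0.12 ± 0.12 SE). It lies 11.81 Mb from Ern1, the least of the 3 members on that chromosome, and 0 members lay within 10 Mb. Timp3 was at 641.7, 636.1, 696.0, 598.5 and 704.8 CPM in IRE1KO against 747.0, 736.1, 560.9 and 331.7 CPM in WT. WT libraries 1 and 2 were highest and WT library 4 lowest, and the log2 fold change of 0.14 ± 0.21 SE became -0.06 without WT library 4. Timp3 shares 1733 bp of exon with Syn3 on the opposite strand. Timp4 was listed with 0 to 9 counts per library.

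**Figure D3:**
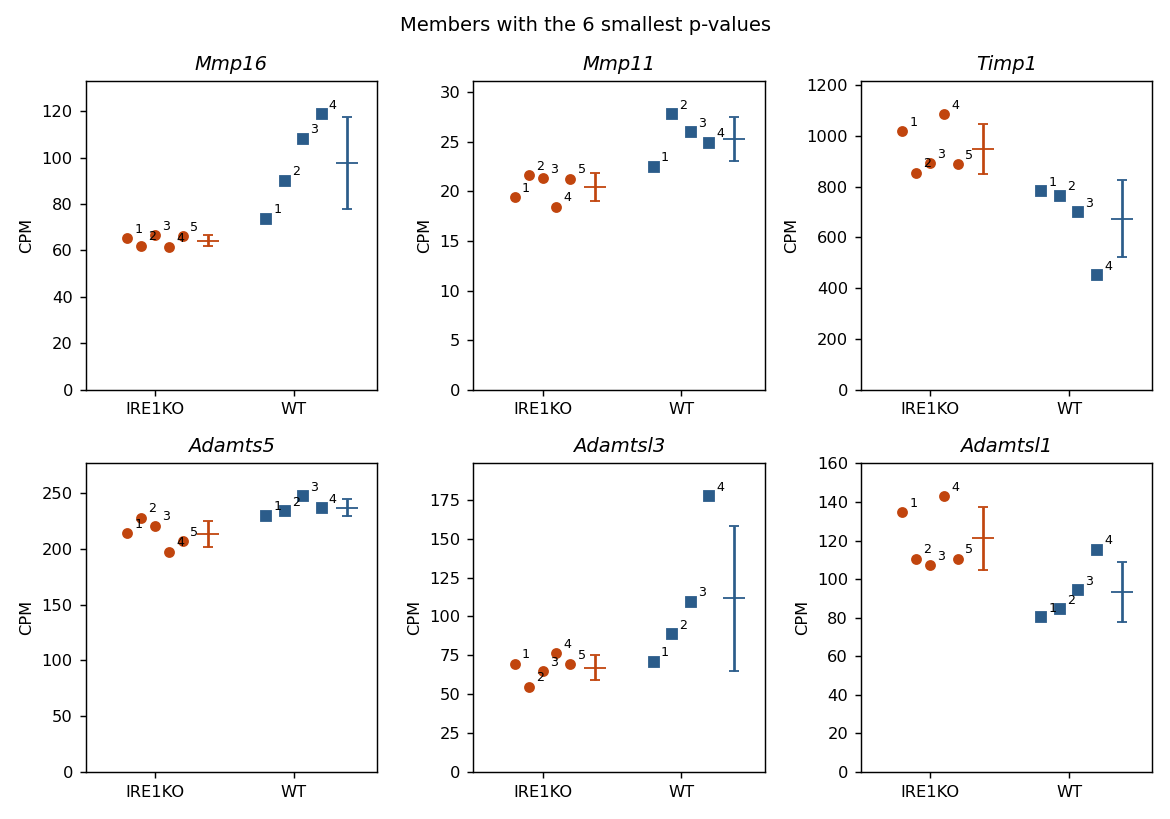
CPM in each library for the 6 members with the smallest p, with library numbers beside the points and mean with SD at the right of each group. Mmp16, Mmp11 and Adamts5 have all IRE1KO points below all WT points and Timp1 has them above, while Adamtsl3 and Adamtsl1 overlap.

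WT library 4 stood apart in the balance of inhibitor to protease transcripts. The summed Timp level was 1578, 1372, 1463, 1636 and 1474 CPM per kb in IRE1KO and 1283, 1391, 1321 and 883.7 in WT. The summed Mmp level was 508.2, 595.6, 523.2, 538.0 and 567.1 CPM per kb in IRE1KO and 469.6, 465.7, 591.0 and 932.1 in WT. The ratio of the sums was 3.11, 2.30, 2.80, 3.04 and 2.60 in IRE1KO and 2.73, 2.99, 2.24 and 0.948 in WT. In 8 libraries the inhibitor transcripts were in excess, and in WT library 4 they were not. Timp1 held 67.5% of the summed Timp level per kb over all libraries. Transcript ratios say nothing of active enzyme, which depends on proenzyme activation and secretion.

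**Figure D4:**
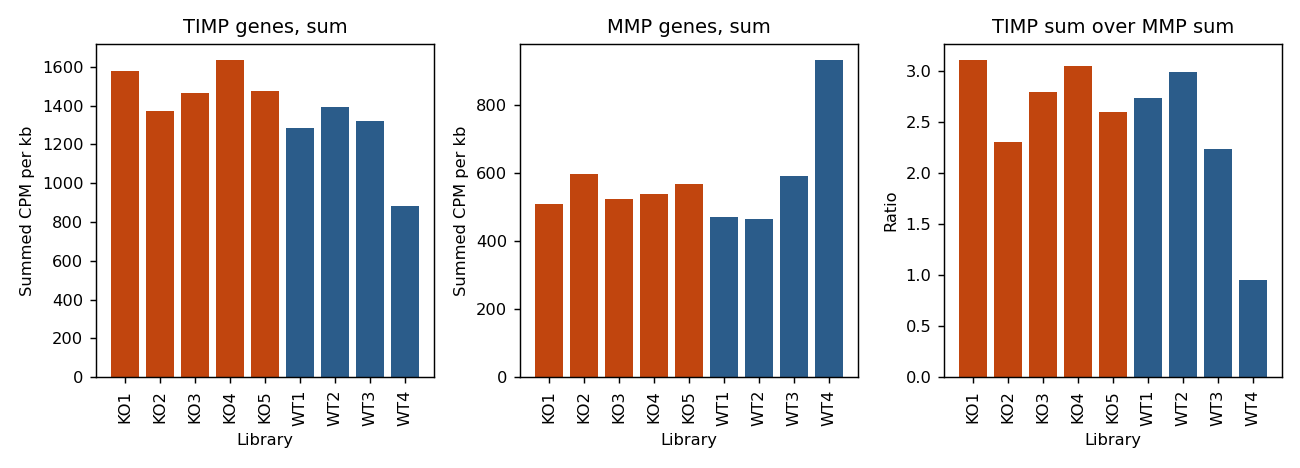
Summed CPM per kb of the 4 Timp genes (left) and of the 23 Mmp genes (middle) and their ratio (right) in each library, IRE1KO (KO on the axis) in orange and WT in blue. WT library 4 has the lowest Timp sum (883.7), the highest Mmp sum (932.1) and the lowest ratio (0.948).

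Among the proteoglycan-cutting ADAMTS proteases, Adamts5 was lower in IRE1KO by a small and steady amount. It was at 214.0, 227.7, 220.8, 197.5 and 206.6 CPM in IRE1KO against 229.6, 233.9, 247.0 and 236.5 CPM in WT. The groups did not overlap, though IRE1KO library 2 came close to WT library 1 (log2 fold change -0.15 ± 0.048 SE, adjusted p = 0.188 by the quasi-likelihood test of edgeR, 0.0647 to 0.422 over the alternatives). Adamts4, aggrecanase-1, was at 50.2, 55.5, 48.0, 48.2 and 49.3 CPM in IRE1KO against 43.5, 38.2, 37.3 and 56.8 CPM in WT. WT library 4 was above every IRE1KO library and the other WT libraries were below them all. Its log2 fold change of 0.19 ± 0.12 SE was 0.34 without WT library 4, with adjusted p 0.0334 by the quasi-likelihood test of edgeR (0.0334 to 0.725 over all alternatives).

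The other members of this clade were closer to the spread of the libraries. Adamts1, which lies near Adamts5 on chromosome 16, was at 166.3 ± 17.5 CPM in IRE1KO against 153 ± 15.7 CPM in WT. Adamts9, also a versican-cutting enzyme, was at 37.95 ± 4.67 and 47.8 ± 20.3 CPM. Adamts8 was at 0.811 ± 0.290 and 1.26 ± 0.430 CPM, and Adamts20 at 1.24 ± 0.249 and 1.03 ± 0.364 CPM, resting on 9 to 32 and 15 to 33 counts per library. Adamts15 was at 0.485, 0.717, 0.372, 0.0456 and 0.575 CPM in IRE1KO against 0.153, 0.308, 1.06 and 2.56 CPM in WT, resting on 1 to 49 counts per library. Its WT values spread from below most IRE1KO libraries to above them all (log2 fold change -1.21 ± 0.79 SE).

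None of the procollagen N-proteinases passed. Adamts2 was at 153.6, 174.6, 145.6, 166.5 and 149.8 CPM in IRE1KO and at 96.1, 138.1, 178.2 and 301.2 CPM in WT, so that all IRE1KO libraries lay within the WT range. Adamts3 was at 8.08 ± 0.998 and 7.74 ± 3.68 CPM and Adamts14 at 66.9 ± 4.09 and 59.1 ± 11.8 CPM. Of the enzymes known to cut the cartilage protein COMP, Adamts7 was at 22.3 ± 1.38 and 26.8 ± 7.79 CPM and Adamts12 at 137.4 ± 14.2 and 137.3 ± 40.1 CPM. Adamts10, which acts on fibrillin microfibrils, was at 49.9 ± 1.79 and 49.98 ± 6.95 CPM, and Adamts6, its close relative, at 34.5 ± 2.24 and 29.9 ± 7.82 CPM.

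Adamts16 had the largest ratio of WT library 4 to the mean of the other WT libraries among the 37 tested members, 6.24-fold. It was at 8.78, 9.06, 4.62, 11.6 and 6.23 CPM in IRE1KO against 2.30, 1.13, 2.73 and 12.8 CPM in WT. WT libraries 1 to 3 lay below all IRE1KO libraries and WT library 4 above them. The log2 fold change was 0.77 ± 0.62 SE with all libraries and 1.97 without WT library 4, where the adjusted p was 0.0342 (quasi-likelihood test of edgeR, 0.0342 to 0.776 over all alternatives).

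Of the ADAMTS-like genes, Adamtsl3 and Adamtsl1 differed in opposite directions before adjustment. Adamtsl3 was at 69.5, 54.8, 64.6, 76.4 and 69.2 CPM in IRE1KO against 70.9, 88.7, 109.6 and 177.3 CPM in WT. WT library 1 lay inside the IRE1KO range and the other 3 above it (log2 fold change -0.74 ± 0.23 SE, adjusted p = 0.188 by the quasi-likelihood test of edgeR, 0.0402 to 0.359 over the alternatives). The order of its WT libraries was that of the glial and adipocyte sums given above, whose part was not tested. That order was not particular to Adamtsl3. It was also the WT order of Adamtsl1, which was higher in IRE1KO, and of the first principal component (-23.41, -23.37, 15.11 and 56.67). Adamtsl1 was at 134.8, 110.6, 107.3, 142.9 and 110.5 CPM in IRE1KO against 80.4, 84.4, 94.2 and 115.2 CPM in WT. WT library 4 overlapped the IRE1KO range and the other 3 lay below it (log2 fold change 0.37 ± 0.13 SE, adjusted p = 0.204 by the quasi-likelihood test of edgeR). Adamtsl4 was at 47.3 ± 7.98 and 55.9 ± 11.7 CPM and Adamtsl5 at 64.4 ± 5.08 and 58.7 ± 13.4 CPM.

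The members varied far more among WT than among IRE1KO libraries. The SD of log2 CPM was larger in WT for 35 of 37 members, or 94.6%, against 82.8% of all tested genes, and the median coefficient of variation was 10.5% in IRE1KO and 28.4% in WT. WT library 4 was the highest of 9 in 22 members (59.5%, against 30.5% of all genes) and the lowest in 4 (10.8%, against 30.5%). The 4 were Timp1, Timp3, Adamts14 and Adamtsl5, while Mmp2, Mmp14, Mmp13, Mmp8, Adamts4 and Adamts9 were among the 22.

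Mmp13 (collagenase-3, chromosome 9 from 7272514 to 7283331), the main interstitial collagenase of rodent bone cells, varied most among the abundant members. It was at 82.7, 220.4, 133.7, 118.5 and 170.7 CPM in IRE1KO against 104.6, 74.7, 184.0 and 635.9 CPM in WT. WT library 4 was 5.25-fold the mean of the other WT libraries, which spanned much of the IRE1KO range. The log2 fold change was -0.78 ± 0.59 SE with all libraries and 0.26 without WT library 4. Mmp3 (stromelysin-1), a neighbour that can activate collagenase proenzymes, was at 1.89, 3.12, 3.19, 1.96 and 2.68 CPM in IRE1KO against 1.99, 1.28, 3.48 and 9.87 CPM in WT. Here too WT library 4 was highest, at 4.38-fold the mean of the others, and the log2 fold change of -0.69 ± 0.53 SE became 0.18 without it. Mmp13 and Mmp3, which carry the AP-1 letters printed above, had the same lowest and highest WT library. This was not particular to those letters. Among WT libraries, Mmp14 and Adamts1, whose windows lack them, also had library 2 lowest and library 4 highest. So did Mmp2, for which no window was found. Mmp8, whose window lacks those letters, was also highest of 9 in WT library 4, at 0.992 CPM or 2.78-fold the mean of the other WT libraries. Mmp12, the third tested gene of the cluster with those letters, was not raised in WT library 4 (4.28 CPM), and Mmp10 was at 0.209 CPM there, within the range of the other libraries.

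Of the tested markers, 6 of 8 for the osteoblast lineage and 5 of 9 for chondrocytes were also highest in WT library 4, where 30.5% of all genes were. Phex, of late osteoblasts and osteocytes, was at 5.69 CPM against 0.82 to 2.27 CPM in the other libraries, Ibsp at 3.92 against 0.097 to 2.37 CPM, and Comp at 117.7 against at most 62.7 CPM. Spp1 and Sp7 were highest in WT library 2, at 1938 and 24.6 CPM, against 1286 and 16.5 CPM in WT library 4, and Col2a1 was at 1098 CPM there, the lowest of the WT libraries. Of the osteoblast list 0 of 8 tested passed. At an unadjusted p under 0.05 in edgeR 3 were lower in IRE1KO (Spp1, Ibsp and Phex), where 9.36% of all genes were. Col10a1, of hypertrophic chondrocytes, was at 2.40 CPM in WT library 4 and at most 2.77 CPM elsewhere. Of 10 chondrocyte markers in the table, 0 of 9 tested passed. At an unadjusted p under 0.05 in edgeR 2 were lower in IRE1KO (Col9a1 and Comp), against the same 9.36% of all genes. The sum of the chondrocyte markers was 723.3 to 1422 CPM in IRE1KO and 1393 to 1440.4 CPM in WT, and Matn1 was at 0 in 8 libraries. The part of such cells in the Mmp13 and Mmp3 values was not tested.

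**Figure D5:**
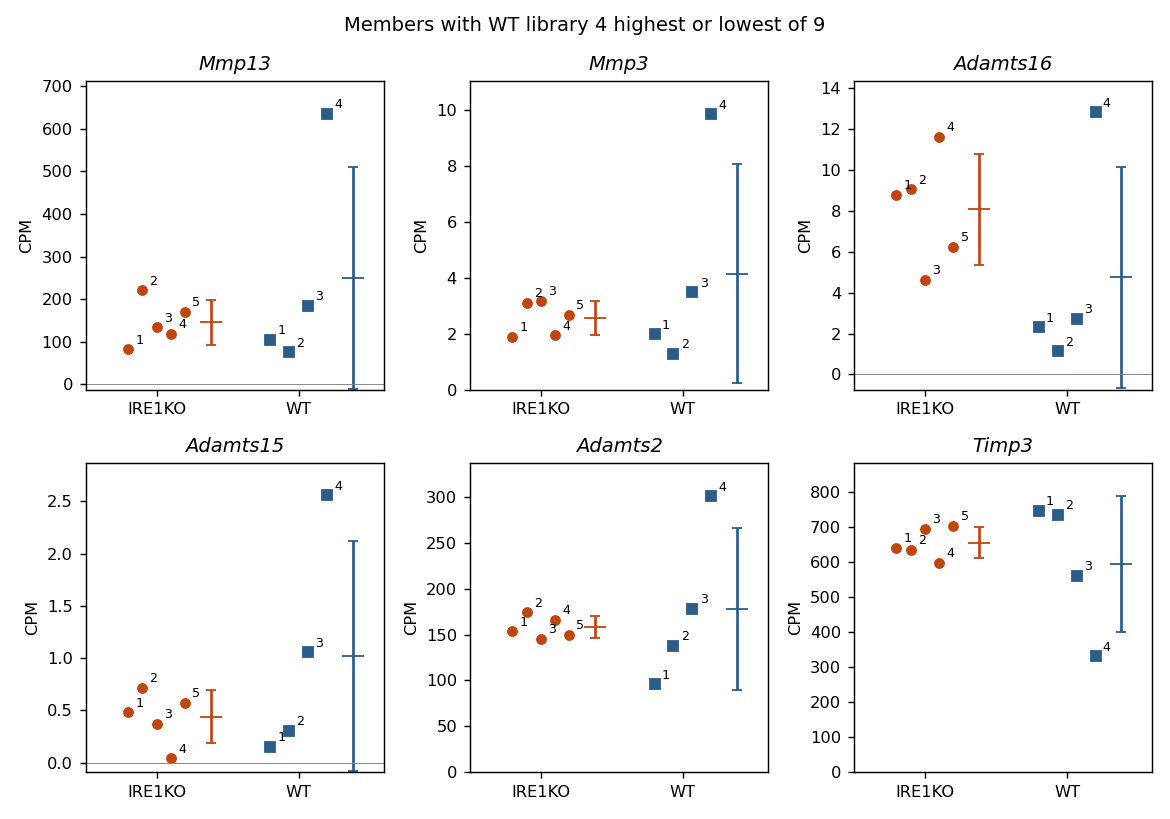
CPM in each library for 6 members in which WT library 4 was the highest (Mmp13, Mmp3, Adamts16, Adamts15, Adamts2) or the lowest (Timp3) of 9, with mean and SD at the right of each group. In Mmp13 the point of WT library 4 stands at 635.9 CPM against at most 220.4 CPM elsewhere.

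Genes around the members in the same pathway were read from 8 lists, chosen with earlier results of these data known, and 1 of their 81 tested genes passed (adjusted over all genes), with 6 higher and 8 lower in IRE1KO at an unadjusted p under 0.05 in edgeR. These are 7.41% and 9.88% of the tested list genes, close to the 7.14% and 9.36% of all genes. The gene that passed was Runx3, a Runx transcription factor, and 0.255% of all tested genes rose. Runx3 rose to 12.2 ± 1.52 CPM in IRE1KO (SD, n = 5) from 7.73 ± 0.559 CPM in WT (SD, n = 4). Its log2 fold change was 0.66 ± 0.11 SE with adjusted p 0.0436 by the quasi-likelihood test of edgeR. The sign held in all 17 alternatives (0.61 to 0.72), but the call was lost in 10 of them, with adjusted p from 3.71e-05 to 0.243. These 10 were 7 of the 9 refits without 1 library (each IRE1KO library, WT library 2 and WT library 3), limma voom, the replicate block and the sum of IRE1KO libraries 3 and 5. The relative Runx2 was at 67.9 ± 2.42 and 66.9 ± 6.28 CPM. Of the other 11 regulators in this list none passed, among them Jun, an AP-1 subunit chosen after its values were seen, at 64.4 ± 1.96 and 74.2 ± 6.73 CPM (log2 fold change -0.20 ± 0.060 SE), whose groups did not overlap. At an unadjusted p under 0.05 in edgeR 3 of 12 regulators were lower (Jun, Fos and Junb), against 9.36% of all genes, and 1 was higher (Runx3). Fos was at 12.7 ± 5.45 and 23.6 ± 8.10 CPM (log2 fold change -0.89 ± 0.34 SE), with groups that overlapped. DESeq2 called 5 genes of the lists (Runx3, Col5a1, Adam33, Mme and Spock2), limma voom called 0, and with quality weights it called 7.

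Of the activators, 0 of 8 tested genes of plasminogen activation and 0 of 5 proprotein convertases passed. Serpinb2, an inhibitor of plasminogen activators, was at 12.7 ± 4.10 CPM in IRE1KO against 37.3 ± 27.2 CPM in WT (log2 fold change -1.56 ± 0.53 SE), and Plat, the tissue plasminogen activator, at 103.8 ± 18.0 and 84.2 ± 17.3 CPM. Furin, which activates Mmp11 and the membrane-type proteases, was at 180.9 ± 3.89 and 170 ± 12.9 CPM, and Pcsk7 at a mean of 43.2 and 41.4 CPM (log2 fold change 0.06 ± 0.040 SE). Plg, which encodes plasminogen, had 0 counts. The median log2 fold changes of these lists were -0.03 and 0.16.

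Of other proteases and inhibitors, 0 of 11 tested ADAM genes, 0 of 12 cathepsins and similar enzymes, 0 of 4 astacin proteases and enhancers and 0 of 12 further inhibitors, surface inducers and clearance receptors passed. Adam33 was at 23.4 ± 2.85 and 15.6 ± 2.67 CPM (log2 fold change 0.59 ± 0.13 SE, adjusted p = 0.0832 by the quasi-likelihood test of edgeR), and Adam10, a sheddase of Notch and cadherins, at 223.7 ± 6.25 and 239.9 ± 4.56 CPM. Mme (neprilysin) was at 10.4 ± 2.07 and 51.1 ± 51.3 CPM (log2 fold change -2.29 ± 0.55 SE), and Ctsk, the collagen-cutting cathepsin K, at 186.6 ± 16.3 and 150.4 ± 36.8 CPM. Pcolce, the procollagen C-proteinase enhancer, was at 436.4 ± 16.5 and 484.8 ± 106.2 CPM, and Bmp1, the proteinase itself, at 261.9 ± 17.4 and 256.9 ± 12.2 CPM. Spock2, a testican, was at 14.5 ± 3.18 and 10.0 ± 0.766 CPM, and Cd63, a tetraspanin that binds TIMP1, at 616.6 ± 25.2 and 568.5 ± 22.8 CPM.

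Of the substrates, 0 of 17 tested genes passed. Col5a1, a fibril-forming collagen, was at 3384 ± 142.6 CPM in IRE1KO against 2702 ± 307.7 CPM in WT with groups that did not overlap (log2 fold change 0.32 ± 0.079 SE), and Comp at 23.6 ± 10.8 and 62.8 ± 39.4 CPM. Their median log2 fold change was -0.12. Over all 8 lists, 6 genes passed without WT library 1 (8.63% of all genes did), 9 without WT library 4 (2.9% of all genes) and 0 in each of the other 7 refits without 1 library. Without WT library 4 the substrates Col5a1, Col1a1, Col1a2 and Col3a1 rose in IRE1KO, Col1a1 with a log2 fold change of 0.47 and Col3a1 with 0.75.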

How the data were processed

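The authors deposited a table of raw, unnormalized counts. Per the submitters' processing notes STAR, limma and the mm10 build were involved, in roles those notes leave out. For the counter, the annotation release and the strand setting: not given in the sources used here. Directional poly-A libraries were made and sequenced in 1 batch, per the labels' protocols.

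The counts went into edgeR 4.0.16 under R 4.3.3 (filterByExpr, TMM, robust quasi-likelihood test, Benjamini-Hochberg adjustment over 13712 genes, threshold 0.05), with DESeq2 1.42.0 and limma 3.58.1 as alternatives, after tests on simulated data. Tables used Python 3.11.15 with pandas 2.3.3, and figures matplotlib 3.10.9. Positions and exon lengths came from GENCODE M21 by Ensembl identifier, and 51 of 51 members had one. Each pool of pups is 1 biological replicate per the labels; whether litters link libraries is unstated, so p-values measure the spread between these libraries.

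Named members were the 12 with the smallest p, the top 3 per kb of each family, the 6 with the largest fold change and the 4 most variable, plus, in each list, genes that passed or else the 2 with the smallest p. The members, lists and rule were chosen with earlier results of these data known. Likeness between members across libraries was not computed, since neither group has 6 libraries. Depth was 18784636 to 22028075 counts. Limits on zero counts cover counting error only.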

Additional observations from a re-analysis of the deposited data

Results flagged for a closer look

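Each value here lay apart from the others of its group, its gap to the nearest library exceeding the 95% critical share of the group's range. Among 74 sets of values (37 members in 2 groups), 10 were apart in this way, or 13.5%, against 5.32% of the sets over all tested genes, and chance gives about 1 in 20. The members share their libraries, so these sets are not independent of each other. WT library 4 accounted for 4: Adamts16 at 12.8 CPM (other WT libraries 1.13 to 2.73), Adamts14 at 41.5 CPM (63.2 to 67.3), Mmp25 at 2.87 CPM (1.67 to 1.79) and Mmp8 at 0.992 CPM (0.303 to 0.41). IRE1KO library 2 was highest for Adamts1 at 196.5 CPM (other IRE1KO libraries 151.2 to 162.4), Adamts4 at 55.5 CPM (48.0 to 50.2) and Adamts9 at 46.1 CPM (34.5 to 37.3), which are proteoglycan-cutting enzymes of 1 clade. IRE1KO library 4 was lowest for Adamts14 at 59.8 CPM (67.7 to 70.3). WT library 1 was highest for Adamts12 at 197.1 CPM (111.2 to 121.5). WT library 2 was lowest for Mmp12 at 0.872 CPM (4.28 to 4.80), the library in which Csf1r was lowest too. Mmp13 in WT library 4 was not among the 10, because WT library 3 lay between it and the rest.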

How the results depend on the processing

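The number of members that passed was 0 with all libraries in edgeR, 4 with DESeq2, 4 with limma voom and quality weights, and 0 to 5 when 1 library was left out. It was 0 without a low-count filter, with RLE size factors, without robust dispersion, in limma voom, with the replicate block, and with IRE1KO libraries 3 and 5 summed. Over all genes the 87 calls became 45 without a low-count filter, 568 with DESeq2, 16 with limma voom, 730 with quality weights, 10 with the 2 libraries summed, and 2 to 1192 without 1 library. The pathway lists' count of 1 became 5 with DESeq2, 0 with limma voom, 7 with quality weights, 0 with the 2 libraries summed and 0 to 9 without 1 library. The cause was not tested.

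Same-numbered libraries correlated in their deviations at 0.151, -0.204, -0.194 and 0.473, and 4 of 8 correlated best with their own number. These values do not settle whether the numbers pair the libraries. The labels name no pairs, so the main fit used no block. With the replicate block on libraries 1 to 4, 0 of all genes and 0 of the pathway genes passed in edgeR (1594 of all genes at an unadjusted p under 0.05), against 3 of all genes in the same 8 libraries without the block.

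For the 24 named members, 380 of 404 refits kept direction and side of the threshold, 15 passed it and 9 changed sign. The sign changes came without WT library 4 and with quality weights. Leaving out 1 library gave log2 fold changes of -0.17 to 0.10 for Mmp2, -0.14 to 0.069 for Mmp14, -1.09 to 0.26 for Mmp13, -0.997 to 0.18 for Mmp3, -0.38 to 0.20 for Adamts2, -0.056 to 0.27 for Timp3 and -0.017 to 0.23 for Adamtsl5, the end of opposite sign to the full fit being in each case that without WT library 4. With quality weights Mmp2 was at 0.015 and Mmp14 at 0.029. Depth limits Mmp9, Mmp8, Adamts15, Adamts8 and Adamts20, with at most 53 counts in any library.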
